A study of Bos taurus with 15 samples.

Results

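The genes described here encode G protein-coupled receptors through which adipose tissue reads catecholamines, lactate, fatty acids, adenosine and prostaglandin E2. They were chosen by symbol from a list of 9 genes, ADRB1, ADRB3, ADRA1A, ADRA2A, HCAR1, FFAR2, FFAR4, ADORA1 and PTGER3, and 8 of the 9 have an entry among the 13896 genes of the deposited tables. FFAR4, the long-chain fatty acid receptor, is not analysed here for lack of an entry. The RNA came from subcutaneous adipose tissue of the dewlap of primiparous Holstein cows, which was measured in 15 libraries that form 5 groups of 3. The group at -4 weeks peripartum (wkpp) was sampled before calving and before the diets began. The other libraries were taken at 1 and 16 wkpp, after calving, from cows in severe negative energy balance (SNEB), which the labels place on a low energy diet (LE), and from cows in moderate negative energy balance (MNEB), on a high energy diet (HE). The sample titles also carry a mark of unstated meaning. It is m1 for -4 wkpp, SNEB 16 wkpp and MNEB 1 wkpp, and m2 for SNEB 1 wkpp and MNEB 16 wkpp. Of the pairs compared here, only -4 wkpp and MNEB 1 wkpp share a mark. Differences in the other comparisons, and between SNEB and MNEB in the change over time, cannot be told apart from this mark. The study fed the diets from 4 weeks before calving and sequenced cows with the most extreme energy balance, so the groups stand for extremes and not for the herd. Biopsies followed a fast under xylazine, an agonist of alpha-2 adrenergic receptors, and all groups share this.

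Lipolysis in adipocytes is driven by cyclic AMP. Beta-adrenergic receptors couple to Gs and stimulate adenylyl cyclase when they bind noradrenaline or adrenaline, which activates protein kinase A and, through it, hormone-sensitive lipase and perilipin 1. The antilipolytic receptors couple to Gi and lower cyclic AMP: ADRA2A binds catecholamines, HCAR1 lactate, FFAR2 short-chain fatty acids, ADORA1 adenosine and PTGER3 prostaglandin E2. ADRA1A binds catecholamines too, but couples to Gq and calcium. In ruminants, the fall of energy balance after calving is the period of strongest fat mobilization, and lactation is known to alter the response of adipose tissue to both beta-adrenergic agonists and adenosine.

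Exonic reads on genes numbered 7269999 to 13677622 per library at -4 wkpp and in SNEB, against 1942303 to 7198774 in MNEB, so low genes are measured least precisely in MNEB. Synthetic spike-in RNAs took 0.116 to 0.982% of exonic reads in the former libraries and 1.78 to 13.3% in MNEB. Of 8 adipocyte markers, 6 were measured, and their summed normalized exonic count was 28870 to 32711 at -4 wkpp, 28654 to 31057 in SNEB and 9631 to 13149 in MNEB at 1 wkpp, and 16057 to 22639 in SNEB and 4828 to 15567 in MNEB at 16 wkpp. The adipocyte markers were thus present in every group, but lower in MNEB and in SNEB 16 wkpp than at -4 wkpp without overlap. The 6 macrophage markers summed to 7795 to 14016 at -4 wkpp, 10249 to 21645 in SNEB and 2449 to 8605 in MNEB at 1 wkpp, and 18863 to 23587 in SNEB against 2421 to 3118 in MNEB at 16 wkpp. The 5 skeletal muscle markers summed to 81.7 to 353 at -4 wkpp and in SNEB and to 1172 to 4013 in MNEB. The 5 smooth muscle markers summed to 4485 to 15965 in SNEB against 19766 to 65671 in MNEB at 16 wkpp. No marker of these 4 lists was at 0 throughout a group. In bulk tissue, fewer cells of a type and less RNA per cell cannot be told apart, and the part of tissue composition and depth in the values below was not tested.

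Values are given as normalized counts, that is, reads divided by the size factor of the library, and are compared between groups of a gene but not between genes, since gene lengths were not used here. Libraries are numbered 1 to 3 within a group by decreasing size factor. Log2 fold changes are of the first named group over the second and come from limma-voom, with a gene tested where its mean normalized count was at least 5. A gene was called differentially expressed (DEG) when its adjusted p was below 0.01 on exonic reads and on reads of the whole gene, introns included, with the same sign. Benjamini-Hochberg adjusted p-values are over all genes tested. The cows were sampled repeatedly according to the study, but the labels do not tie libraries to cows, so p-values measure the spread between libraries.

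None of the 8 receptor genes was a DEG in any of the 6 comparisons. Among all genes tested, the DEGs were 145 of 11138 (1.30%) for -4 wkpp against MNEB 1 wkpp, 4 of 11013 (0.0363%) for -4 wkpp against SNEB 1 wkpp and 369 of 10588 (3.49%) for SNEB against MNEB at 16 wkpp. They were 0 of 10449 (0%) for MNEB 1 against 16 wkpp, 0 of 10901 (0%) for SNEB 1 against 16 wkpp and 0 of 11056 (0%) for SNEB against MNEB at 1 wkpp. At an unadjusted exonic p below 0.05, limma marked 1 of 6 receptor genes tested for -4 wkpp against MNEB 1 wkpp, 4 of 7 for -4 wkpp against SNEB 1 wkpp, 0 of 5 for MNEB over time, 1 of 7 for SNEB over time, 1 of 6 at 1 wkpp and 1 of 6 at 16 wkpp. The same threshold took 39.5%, 14.4%, 12.8%, 7.08%, 30.8% and 37.5% of all genes, in that order. The share of receptor genes lay above that of all genes in the comparisons of -4 wkpp with SNEB 1 wkpp and of SNEB over time, and below it in the other 4. With so few genes, nothing particular to them was read from these shares. The adenosine, prostaglandin E2, lactate and alpha-1A receptors carried the differences with the lowest adjusted p.

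**Figure D1:**
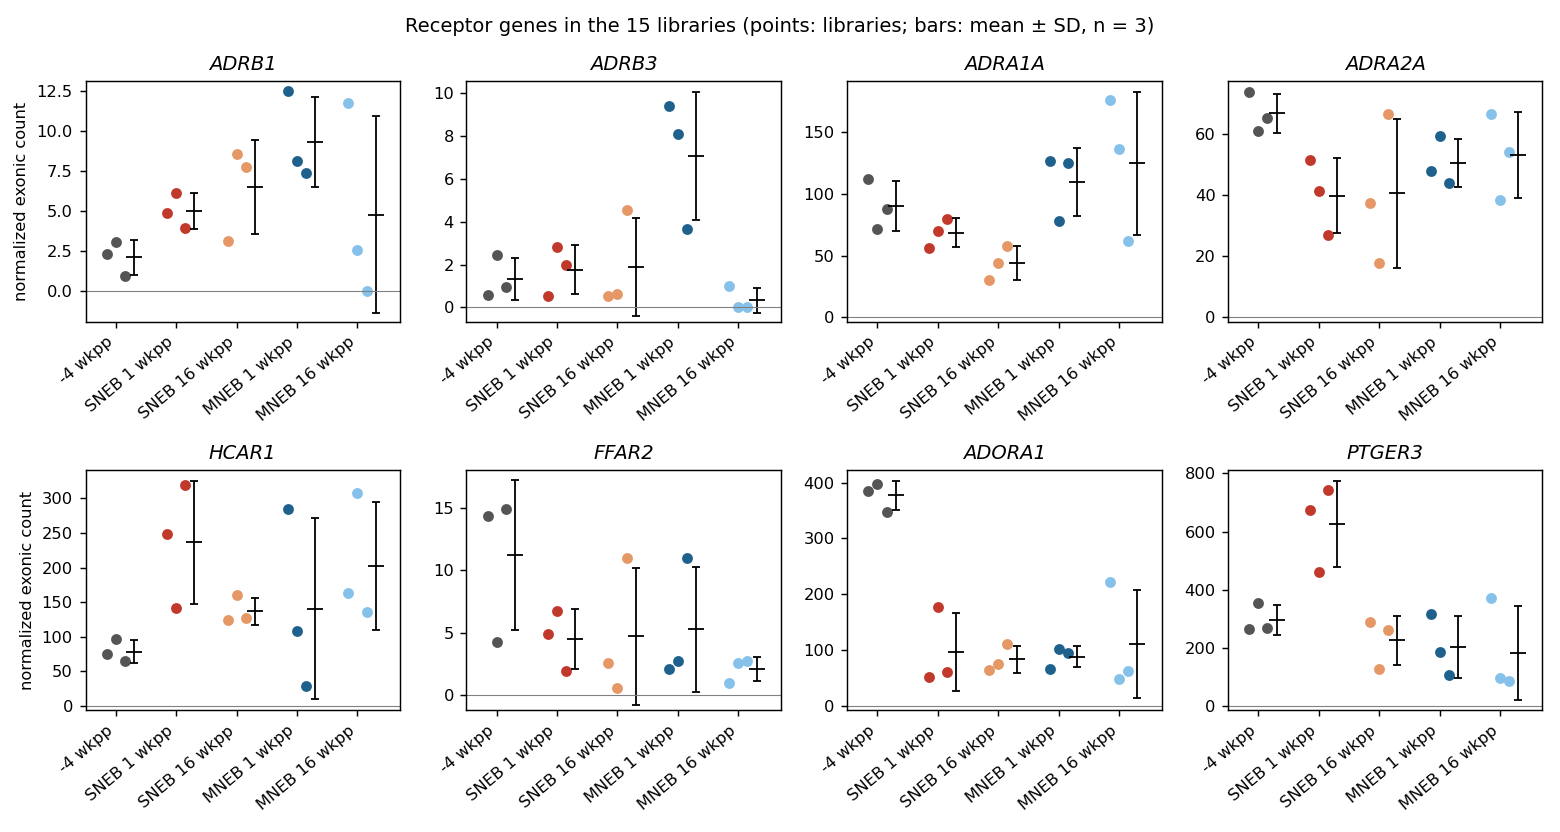
Normalized exonic count of 8 receptor genes in each of 15 libraries, by group. Points are libraries and bars are the mean ± SD of 3 libraries. ADORA1 lies between 348 and 397 at -4 wkpp and at or below 222 in all other libraries, PTGER3 is highest in SNEB 1 wkpp, and ADRB1, ADRB3 and FFAR2 stay at 14.9 or below.

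ADORA1, the adenosine A1 receptor that restrains lipolysis, had its highest level before calving. Its normalized exonic counts at -4 wkpp were 386, 397 and 348. The 3 libraries of SNEB 1 wkpp gave 51.9, 177 and 60.1, and those of MNEB 1 wkpp gave 66.7, 103 and 95.5. All 3 libraries at -4 wkpp thus lay above all 6 libraries at 1 wkpp, and library 2 of SNEB stood closest to them. SNEB 16 wkpp had 64.4, 75.3 and 110, and MNEB 16 wkpp had 222, 48.8 and 62.3, where library 1 stood well above the other libraries. The order of the group means was -4 wkpp (377 ± 26.0, SD, n = 3), MNEB 16 wkpp (111 ± 96.3), SNEB 1 wkpp (96.5 ± 70.2), MNEB 1 wkpp (88.3 ± 19.0) and SNEB 16 wkpp (83.4 ± 24.0). Only the step from -4 wkpp to the next group was free of overlap, and the 4 groups after calving did not differ beyond their spread.

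The exonic log2 fold change of ADORA1 for -4 wkpp against MNEB 1 wkpp was 2.23 (SE 0.29, 95% confidence interval 1.59 to 2.87, limma adjusted p = 0.000546), a 4.68-fold higher level before calving. On whole gene reads it was 1.67 (SE 0.33, adjusted p = 0.0288), which missed the threshold and left ADORA1 out of the DEGs. On exonic reads alone it passed, as did 1716 of 11285 genes (15.2%). With an adjusted p below 0.05 in both analyses it passed beside 988 genes in all (8.87%). Against SNEB 1 wkpp, the exonic log2 fold change was 2.19 (SE 0.38, 95% confidence interval 1.32 to 3.06, limma adjusted p = 0.0297) and the whole gene value 2.08 (SE 0.40, adjusted p = 0.0869). Without library 2 of SNEB 1 wkpp the exonic value was 2.76 and ADORA1 was called (limma adjusted p = 0.000569 and 0.00533), in a fit that called 86 of 11033 genes (0.779%). The 2 comparisons share the libraries at -4 wkpp.

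In a fit added after the data were seen, limma weighted each library by its quality. It called ADORA1 higher at -4 wkpp against MNEB 1 wkpp, with a log2 fold change of 2.04 (limma adjusted p = 0.000444 on exons and 0.00545 on the whole gene), and 1589 of 11138 genes in all (14.3%). It also called ADORA1 higher against SNEB 1 wkpp, with 2.53 (limma adjusted p = 0.00133 and 0.0022), beside 294 genes in all (2.67%). Of the 6 adipocyte markers, 4 were DEGs against MNEB 1 wkpp and 1 against SNEB 1 wkpp, all higher at -4 wkpp, with median log2 fold changes of 2.59 and 1.47. The 3 measured mast cell markers summed to 2753 to 4427 at -4 wkpp, without overlap with 273 to 434 in MNEB 1 wkpp (median log2 fold change 4.57, 0 DEGs) and with overlap with SNEB 1 wkpp. Markers of blood vessel endothelium were lower at -4 wkpp, at 19260 to 23443, than in both MNEB 1 wkpp, at 29689 to 63250, and SNEB 1 wkpp, at 29469 to 36585, and the skeletal muscle markers, summed above, were lower than in MNEB 1 wkpp without overlap. The part of these cell types in the values of ADORA1 was not tested. After calving, no further difference of ADORA1 was detected, with exonic log2 fold changes of 0.03 for SNEB over time, 0.05 between SNEB and MNEB at 1 wkpp, -0.44 for MNEB over time and -0.51 at 16 wkpp (limma adjusted p = 0.990, 0.961, 0.766 and 0.484). Their 95% confidence intervals spanned more than 1 on the log2 scale on at least 1 side. The narrowest, that of SNEB over time, ran from -1.04 to 1.10, and that of MNEB over time from -1.71 to 0.83. Differences of 2-fold, and of more in the wider intervals, were thus not excluded.

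PTGER3, the EP3 receptor of prostaglandin E2, was highest in SNEB at 1 wkpp on exonic reads. Its normalized exonic counts there were 676, 462 and 744, and they were 264, 355 and 268 at -4 wkpp. In MNEB at 1 wkpp they were 317, 186 and 107. Every library of SNEB 1 wkpp thus exceeded every library of these 2 groups. SNEB 16 wkpp had 289, 129 and 260, and MNEB 16 wkpp had 371, 95.1 and 86.6, again all below the lowest library of SNEB 1 wkpp. The group means were 627 ± 147 (SD, n = 3) in SNEB 1 wkpp, 296 ± 51.5 at -4 wkpp, 226 ± 85.3 in SNEB 16 wkpp, 203 ± 106 in MNEB 1 wkpp and 184 ± 162 in MNEB 16 wkpp. The last 4 groups overlapped with their neighbours in this order.

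Against MNEB at 1 wkpp, the exonic log2 fold change of PTGER3 in SNEB was 1.53 (SE 0.38, 95% confidence interval 0.68 to 2.39, limma adjusted p = 0.0289), which is 2.90-fold, and the whole gene value was 1.68 (SE 0.54, adjusted p = 0.165). The fit with library quality weights called it, at 1.90 (limma adjusted p = 0.00519 and 0.00331), beside 813 of 11056 genes in all (7.35%). For -4 wkpp against SNEB 1 wkpp the exonic value was -1.06 (SE 0.23, 95% confidence interval -1.58 to -0.54, limma adjusted p = 0.0625), and for SNEB 1 against 16 wkpp it was 1.49 (SE 0.32, 95% confidence interval 0.76 to 2.22, limma adjusted p = 0.693). The last of these had an unadjusted p of 0.00144, in a comparison without any DEG. Whole gene reads of PTGER3 spread more widely than exonic reads in SNEB 1 wkpp, at normalized counts of 3092, 1177 and 4609. With 1366, 863 and 1421 at -4 wkpp and 1313, 443 and 937 in SNEB 16 wkpp, both groups overlapped with SNEB 1 wkpp on whole gene reads. The whole gene log2 fold changes were -1.11 (SE 0.48, limma adjusted p = 0.482) for -4 wkpp against SNEB 1 wkpp and 1.62 (SE 0.54, adjusted p = 0.745) for SNEB over time. The 3 other comparisons gave exonic values of 0.47, 0.26 and 0.20 (limma adjusted p = 0.354, 0.873 and 0.814). Markers of 3 cell types were also higher in SNEB than in MNEB at 1 wkpp without overlap. These were the macrophage and adipocyte markers, summed above, and the mast cell markers, with sums of 1132 to 3079 in SNEB and 273 to 434 in MNEB. None of the 4, 6 and 3 tested was a DEG there, and their median log2 fold changes were 1.19, 1.41 and 2.23. All 3 sums overlapped between -4 wkpp and SNEB 1 wkpp. The median log2 fold changes of these markers for -4 wkpp against SNEB 1 wkpp were -0.45, 1.47 and 0.96. There, 1 adipocyte marker was a DEG, higher at -4 wkpp. The endothelium sum was higher in SNEB 1 wkpp than at -4 wkpp, as given above, and than in SNEB 16 wkpp, at 22207 to 25390. The adipocyte sum was also lower in SNEB 16 wkpp than in SNEB 1 wkpp without overlap. So was the sum of keratinocyte markers, at 136 to 271 in SNEB 16 wkpp and 313 to 793 in SNEB 1 wkpp. The part of these cells in the values of PTGER3 was not tested.

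HCAR1, the lactate receptor, had its lowest group mean before calving. Its normalized exonic counts at -4 wkpp were 74.8, 96.5 and 64.5, and in SNEB at 1 wkpp they were 248, 142 and 319. All 3 libraries of SNEB 1 wkpp lay above all 3 at -4 wkpp. The endothelium markers were likewise higher in SNEB 1 wkpp than at -4 wkpp without overlap. The adipocyte markers went the other way, with a median log2 fold change of 1.47 for -4 wkpp against SNEB 1 wkpp, though their sums overlapped. The part of these cells in the values of HCAR1 was not tested. In MNEB at 1 wkpp the counts ran from 29.4 in library 3, the lowest of all 15 libraries, over 108 to 285 in library 1. SNEB 16 wkpp had 125, 160 and 127, and MNEB 16 wkpp had 163, 308 and 135. The order of the means was SNEB 1 wkpp (236 ± 88.9, SD, n = 3), MNEB 16 wkpp (202 ± 92.9), MNEB 1 wkpp (141 ± 131), SNEB 16 wkpp (137 ± 19.6) and -4 wkpp (78.6 ± 16.4), and only SNEB 16 wkpp and -4 wkpp were neighbours without overlap.

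For -4 wkpp against SNEB 1 wkpp, the exonic log2 fold change of HCAR1 was -1.49 (SE 0.36, 95% confidence interval -2.30 to -0.68, limma adjusted p = 0.0835), that is, 2.81-fold lower before calving, and the whole gene value was -1.55 (SE 0.40, adjusted p = 0.179). The fit with library quality weights called it at -1.72 (limma adjusted p = 0.0057 and 0.00617), beside 294 of 11013 genes in all (2.67%). Against MNEB 1 wkpp the exonic value was -0.84 (SE 0.58, limma adjusted p = 0.310), and this direction rested on library 1 of MNEB 1 wkpp, without which it was 0.33. Without library 3 of the same group it was -1.35. The other comparisons gave exonic values of 0.68 for SNEB over time, 0.68 between SNEB and MNEB at 1 wkpp, -0.48 for MNEB over time and -0.43 at 16 wkpp, with limma adjusted p from 0.285 to 0.775. HCAR1 and ADORA1 thus stood in opposite order at -4 wkpp and SNEB 1 wkpp.

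FFAR2, a receptor of acetate and propionate, was read too rarely for firm statements. It had 1 to 25 exonic reads per library and 104 in all 15. Its normalized exonic counts were 14.4, 4.28 and 14.9 at -4 wkpp, 4.86, 6.72 and 1.96 in SNEB 1 wkpp and 2.08, 2.70 and 11.0 in MNEB 1 wkpp. SNEB 16 wkpp had 2.60, 0.612 and 11.0, and MNEB 16 wkpp had 0.978, 2.57 and 2.71, each of the last 3 being 1 read. All groups overlapped with their neighbours in the order of means, from 11.2 ± 6.01 (SD, n = 3) at -4 wkpp to 2.09 ± 0.961 in MNEB 16 wkpp. FFAR2 passed the filter on exonic reads in 3 comparisons, with log2 fold changes of 1.26 (SE 1.15) for -4 wkpp against MNEB 1 wkpp, 1.14 (SE 0.75) for -4 wkpp against SNEB 1 wkpp and 0.52 (SE 0.95) for SNEB over time. The limma adjusted p was 0.449, 0.567 and 0.896, and differences up to 3.80 on the log2 scale were within the confidence interval of the first.

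ADRA2A, the alpha-2A receptor that opposes the beta receptors, had its highest group mean before calving. Its normalized exonic counts were 73.7, 61.1 and 65.4 at -4 wkpp, 51.3, 41.4 and 26.8 in SNEB 1 wkpp and 47.9, 59.4 and 44.1 in MNEB 1 wkpp. The libraries at -4 wkpp were above those of both groups at 1 wkpp, by a narrow margin over MNEB. With the size factors of the whole gene analysis, -4 wkpp (53.3 to 71.4) and MNEB 1 wkpp (43.4 to 62.2) overlapped. SNEB 16 wkpp, with 37.4, 17.8 and 66.5, overlapped with MNEB 16 wkpp, with 66.5, 38.6 and 54.2. The exonic log2 fold change for -4 wkpp against SNEB 1 wkpp was 0.77 (SE 0.31, 95% confidence interval 0.06 to 1.48, limma adjusted p = 0.297), against MNEB 1 wkpp it was 0.41 (SE 0.35, adjusted p = 0.419), and at 16 wkpp it was -0.66 (SE 0.52, adjusted p = 0.377). In the order of means, from 66.7 ± 6.38 (SD, n = 3) at -4 wkpp to 39.8 ± 12.4 in SNEB 1 wkpp, all neighbours overlapped.

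ADRA1A, the alpha-1A receptor, was lowest in SNEB at 16 wkpp. Its normalized exonic counts there were 30.1, 44.1 and 58.1, against 176, 136 and 62.3 in MNEB at the same time. The groups did not overlap, though library 3 of MNEB came close to library 3 of SNEB. SNEB 1 wkpp had 56.2, 69.9 and 79.7, MNEB 1 wkpp had 127, 78.3 and 125, and the group at -4 wkpp had 112, 71.5 and 87.8. The means ran from 125 ± 57.7 (SD, n = 3) in MNEB 16 wkpp over 110 ± 27.6 in MNEB 1 wkpp, 90.5 ± 20.5 at -4 wkpp and 68.6 ± 11.8 in SNEB 1 wkpp to 44.1 ± 14.0 in SNEB 16 wkpp, and each overlapped with the next.

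At 16 wkpp, the exonic log2 fold change of ADRA1A in SNEB against MNEB was -1.63 (SE 0.41, 95% confidence interval -2.54 to -0.71, limma adjusted p = 0.0204), or 3.09-fold lower in SNEB. The whole gene value was -1.79 (SE 0.36, 95% confidence interval -2.61 to -0.97, adjusted p = 0.0164). An adjusted p below 0.05 in both analyses was reached by ADRA1A and by 1324 of 10588 genes in all (12.5%). In a joint fit over all 15 libraries, which shares the estimate of the spread, ADRA1A passed the threshold of 0.01 (limma adjusted p = 0.00673 and 0.00729), as did 471 of 10951 genes (4.30%). At 1 wkpp the exonic value was -0.72 (SE 0.32, limma adjusted p = 0.167) and for SNEB over time 0.66 (SE 0.31, adjusted p = 0.693). The remaining values were -0.32, 0.40 and -0.18 (limma adjusted p = 0.505, 0.582 and 0.876). At 16 wkpp the smooth muscle and skeletal muscle markers, summed above, were higher in every library of MNEB than in every library of SNEB. The adipocyte and macrophage sums, and that of mast cell markers, at 1972 to 2435 in SNEB and 247 to 514 in MNEB, were higher in every library of SNEB. The part of these markers in the difference of ADRA1A was not tested.

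ADRB1 and ADRB3, the beta-1 and beta-3 receptors, were near the limit of detection in all groups. ADRB1 had 4, 5 and 1 exonic reads at -4 wkpp, 9, 11 and 6 in SNEB 1 wkpp, 12, 3 and 2 in MNEB 1 wkpp, 6, 14 and 12 in SNEB 16 wkpp and 12, 1 and 0 in MNEB 16 wkpp. Normalized, the means were 2.10 ± 1.08 (SD, n = 3), 4.98 ± 1.12, 9.32 ± 2.79, 6.48 ± 2.94 and 4.77 ± 6.17, with all neighbours in their order overlapping. The libraries at -4 wkpp were below those of both groups at 1 wkpp, on these few reads. ADRB1 passed the filter in 4 comparisons, with exonic log2 fold changes of -1.13 (SE 0.69) for -4 wkpp against SNEB 1 wkpp, -1.07 (SE 0.75) between SNEB and MNEB at 1 wkpp, -0.24 (SE 0.60) for SNEB over time and 0.29 (SE 0.90) at 16 wkpp. The limma adjusted p ran from 0.360 to 0.927. ADRB3, the receptor best known from adipocytes of rodents, had 38 exonic reads in all 15 libraries, 0 to 9 per library, and was under the filter in all 6 comparisons. Its counts were highest in MNEB 1 wkpp, with 9, 3 and 1 reads and a normalized mean of 7.05 ± 2.99, and lowest in MNEB 16 wkpp, with 1, 0 and 0 reads. Every library of MNEB 1 wkpp exceeded those at -4 wkpp, in SNEB 1 wkpp and in MNEB 16 wkpp, which was not tested at such counts. No difference in ADRB3 was tested, since the filter on low counts removed it.

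**Figure D2:**
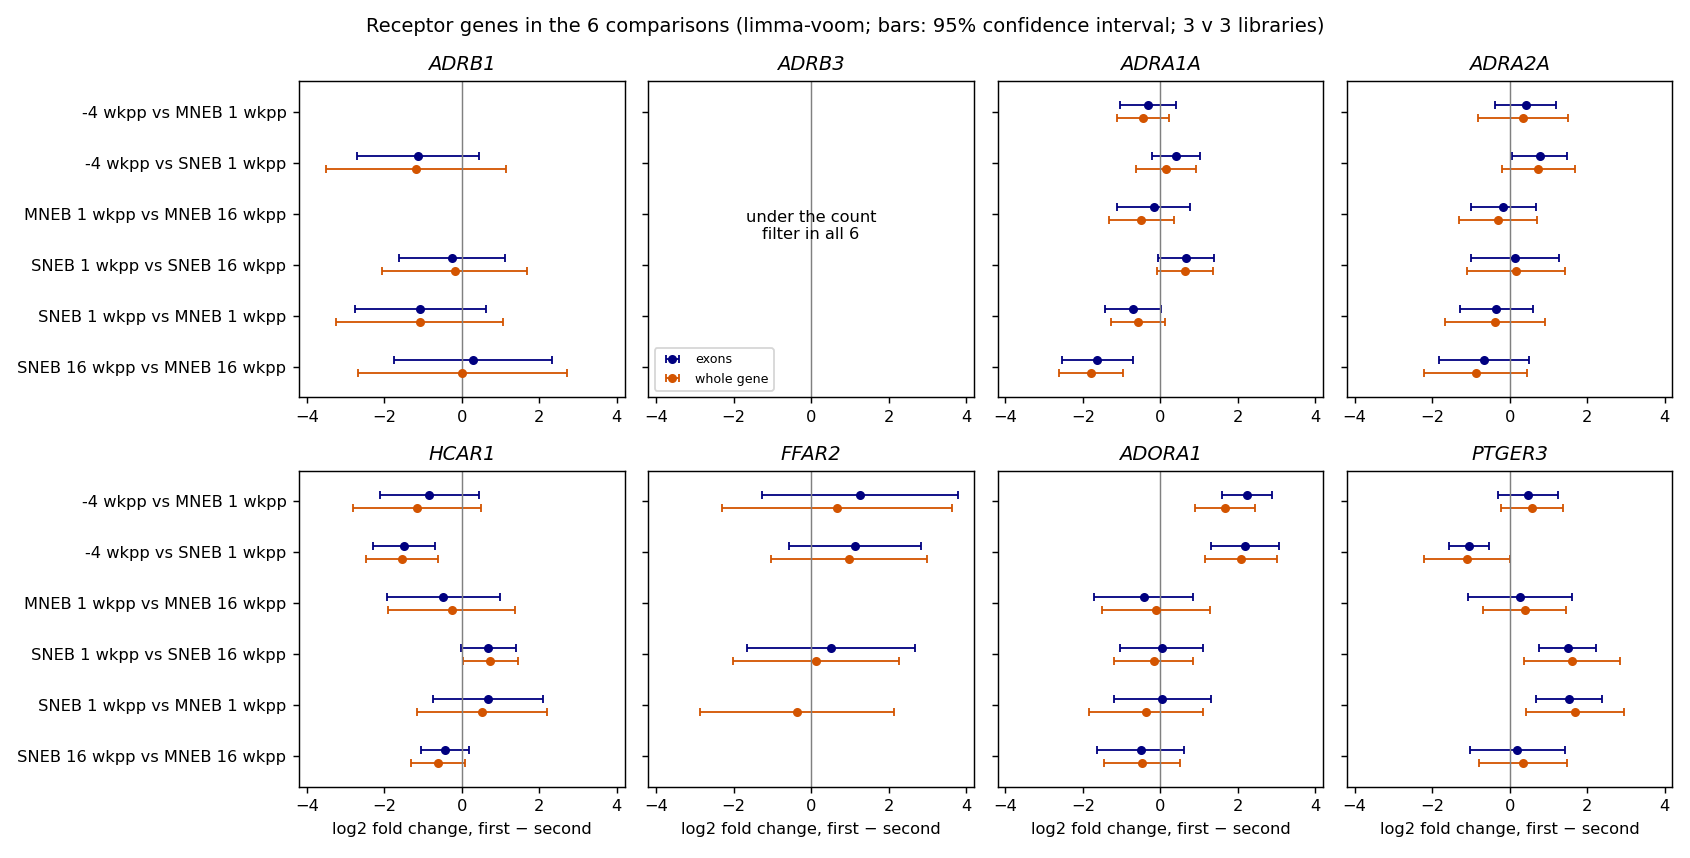
Log2 fold change of 8 receptor genes in 6 comparisons of 3 libraries with 3 others, on exonic and whole gene reads. Points are limma-voom estimates of the first named group over the second, bars are 95% confidence intervals, and missing points were under the count filter. The intervals of ADORA1 stay above 0 in both comparisons with -4 wkpp (exonic 2.23 and 2.19), and that of ADRA1A below 0 at 16 wkpp (-1.63).

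The libraries of the groups were also set side by side without a model. Of the receptor genes tested, 2 of 6 were free of overlap for -4 wkpp against MNEB 1 wkpp, both higher at -4 wkpp (44.2% of all genes in either direction). For -4 wkpp against SNEB 1 wkpp, 2 of 7 were higher and 3 of 7 lower without overlap (19.6% of all genes). The receptors higher at -4 wkpp were ADORA1 and ADRA2A, and those lower were ADRB1, HCAR1 and PTGER3. ADRB1 reached the filter of 5 there only through SNEB 1 wkpp, with a mean of 7.82 against 3.29 at -4 wkpp. Over time there were 0 of 5 in MNEB (19.8%) and 1 of 7 in SNEB, PTGER3 (11.9%). Between SNEB and MNEB there were 2 of 6 at 1 wkpp, PTGER3 and ADRB1 in opposite directions (38.4%), and 1 of 6 at 16 wkpp, ADRA1A (43.1%). Apart from -4 wkpp against SNEB 1 wkpp, these counts lay near or below the share of all genes. At 1 wkpp, ADRB1 likewise reached the filter only through MNEB, with a mean of 8.19 against 4.43 in SNEB. Counts that include ADRB1 are thus partly set by the filter, and nothing was read from them. The median exonic log2 fold change of the receptor genes tested was 0.44, 0.40, -0.18, 0.52, -0.15 and -0.47 in the order used above for the 6 comparisons, beside 0.03, -0.02, 0.00, -0.01, 0.03 and 0.03 for all genes.

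Whether the change from 1 to 16 wkpp differed between SNEB and MNEB was tested in 1 fit over 12 libraries. No receptor gene passed, nor did any gene (0 of 10851, 0%), with 533 genes at an unadjusted exonic p below 0.05. This count stayed at 0 under the alternatives run, library quality weights included. PTGER3 had the largest difference on the higher side, at 1.29 on the log2 scale (SE 0.72, 95% confidence interval -0.28 to 2.85), as its level was higher at 1 than at 16 wkpp by 1.49 in SNEB and by 0.26 in MNEB. The differences of HCAR1, ADRA1A, ADORA1, ADRA2A and ADRB1 were 1.09 (SE 0.73), 0.89 (SE 0.53), 0.55 (SE 0.83), 0.31 (SE 0.69) and -1.33 (SE 1.10), and the limma adjusted p was 0.991 for each of the 6.

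The genes differed in the share of their whole gene reads that lay outside exons. ADRB1 and ADRA2A had none, as the exonic and whole gene reads were equal in every library, and HCAR1 had at most 0.629% of its reads outside exons. ADRA1A had 88.3 to 91.1% of its whole gene reads outside exons in the 5 group means, and PTGER3 had 71.5 to 75.4%. For all genes together the share was 46.2 to 54.0%. ADORA1 was at 43.1% ± 7.01 (SD, n = 3) at -4 wkpp, 46.0% ± 7.85 in SNEB 1 wkpp and 62.6% ± 9.03 in MNEB 1 wkpp. The libraries of ADORA1 in MNEB 1 wkpp, at 52.2 to 69.0%, were above those at -4 wkpp, at 36.5 to 50.5%. In the comparison of these groups, the exonic log2 fold change of ADORA1 was 2.23 and the whole gene value 1.67. At 16 wkpp the share was 53.0% ± 10.9 in SNEB, with libraries from 40.6 to 60.8%, and 45.4% ± 5.35 in MNEB, with libraries from 40.9 to 51.3%. The libraries of both groups at 16 wkpp overlapped with those at -4 wkpp.

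**Figure D3:**
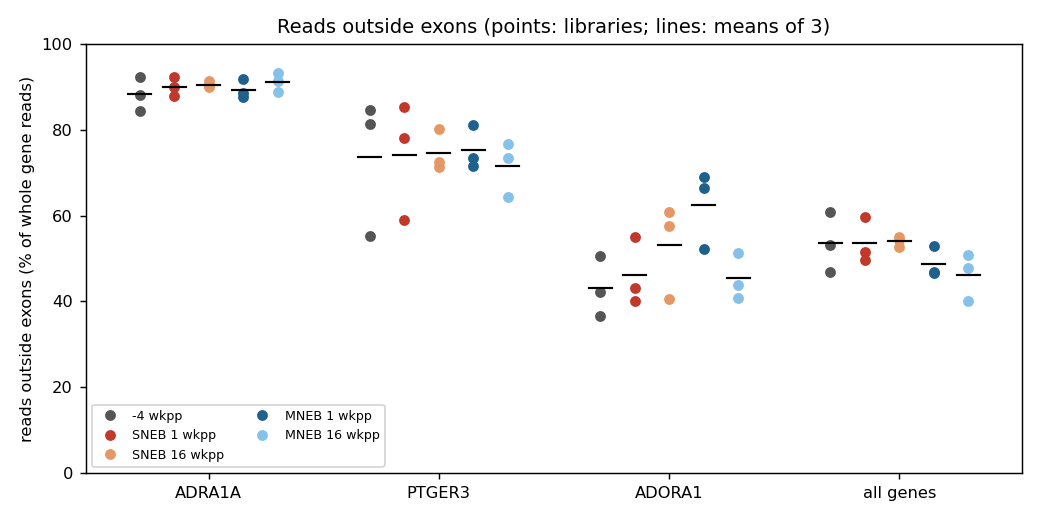
Share of whole gene reads that lie outside exons for ADRA1A, PTGER3, ADORA1 and all genes, in percent, by group. Points are libraries and lines are means of 3. ADRA1A stays above 84% in every library, and ADORA1 rises to 69.0% in a library of MNEB 1 wkpp from 36.5 to 50.5% at -4 wkpp.

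Ratios of exonic reads within a library do not depend on its size factor. They were chosen after the values had been seen. The log2 ratio of HCAR1 to ADORA1 was -2.28 ± 0.21 (SD, n = 3) at -4 wkpp, 1.45 ± 1.53 in SNEB 1 wkpp and 0.16 ± 1.90 in MNEB 1 wkpp. That of PTGER3 to ADORA1 was -0.36 ± 0.19 at -4 wkpp, 2.90 ± 1.32 in SNEB 1 wkpp and 1.09 ± 1.06 in MNEB 1 wkpp. Both ratios were lower in every library at -4 wkpp than in every library at 1 wkpp, in both SNEB and MNEB. Both have ADORA1 as denominator, so they are not separate from its higher level at -4 wkpp, and they were not tested.

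**Figure D4:**
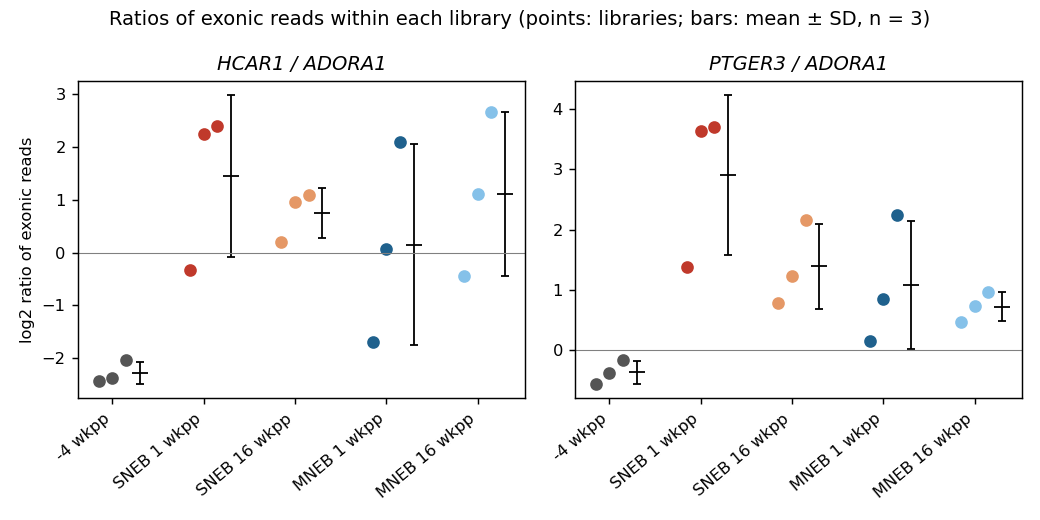
Log2 ratio of exonic reads of HCAR1 to ADORA1 and PTGER3 to ADORA1 within each library, by group. Points are libraries and bars are the mean ± SD of 3. The 3 libraries at -4 wkpp cluster tightly, with SD of 0.21 and 0.19, and lie below all libraries at 1 wkpp.

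Across the 15 libraries, log2 normalized exonic counts of the 5 better covered receptors were compared pairwise. The highest Pearson r was 0.569, between ADRA2A and ADORA1, and the lowest was -0.545, between HCAR1 and ADORA1, with 0.343 for HCAR1 and PTGER3. These values are given as a description, since libraries share groups, size factors and depth.

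The surrounding pathway was described with 56 genes in 7 lists, of which 48 had an entry, and these lists, too, were not chosen blind to the results. Between 40 and 45 of them were tested per comparison. In SNEB against MNEB at 16 wkpp, 3 of 42 were DEGs, all lower in SNEB, beside 3.49% of all genes, and in the other 5 comparisons 0 were. On exonic reads alone, 8 of 43 passed at 16 wkpp, beside 1073 of 10741 genes in all (9.99%), and 11 of 46 for -4 wkpp against MNEB 1 wkpp, beside 15.2% of all genes. At an adjusted p below 0.05 in both analyses, 9 of 42 and 3 of 45 passed in the same comparisons, beside 12.5% and 8.87%. ADRA1D, the alpha-1D receptor of vascular smooth muscle, had normalized exonic counts of 23.9, 20.8 and 29.0 in SNEB and 91.9, 72.0 and 92.1 in MNEB. Its log2 fold change was -1.82 (SE 0.30, limma adjusted p = 0.00337 on exons and 0.00275 on the whole gene). ADCY4 and ADCY6 are adenylyl cyclases, enzymes that Gs stimulates. ADCY4 had 320, 386 and 379 in SNEB and 1137, 1020 and 1189 in MNEB, and a log2 fold change of -1.62 (SE 0.16, limma adjusted p = 0.000603 and 0.00351). ADCY6 had 736, 784 and 825 in SNEB and 2823, 2334 and 2526 in MNEB, and a log2 fold change of -1.69 (SE 0.15, limma adjusted p = 0.000499 and 0.00194). The groups did not overlap in any of the 3 genes. Leaving out 1 library left 1 call, that of ADCY6, for 5 of the 6 libraries and all 3 calls without library 3 of SNEB 16 wkpp.

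Of the 7 lists, the other adrenergic receptors had 1 DEG of 3 tested at 16 wkpp and a median log2 fold change of -1.29, and the adenylyl cyclases had 2 of 7 and a median of -1.18. Over all genes tested there, 369 of 10588 were DEGs (3.49%) and the median was 0.03. The medians of the other lists were 0.37 for the receptors of related ligands (0 of 5), -0.03 for G protein alpha subunits (0 of 6), -0.44 for receptor kinases and arrestins (0 of 6), 0.66 for synthesis, uptake and breakdown of catecholamines (0 of 6) and 0.51 for the downstream genes of lipolysis (0 of 9). In the latter list, LIPE, which encodes hormone-sensitive lipase, had a log2 fold change of 0.11 (SE 0.47, limma adjusted p = 0.880) at 16 wkpp and of -0.98 (SE 0.20, adjusted p = 0.0571) for -4 wkpp against SNEB 1 wkpp. MAOB, which breaks down amines, had an exonic log2 fold change of 3.38 (SE 0.35, limma adjusted p = 0.000181) for -4 wkpp against MNEB 1 wkpp, but a whole gene value of 1.63 (SE 0.60, adjusted p = 0.153). Against SNEB 1 wkpp the values of MAOB were 2.36 (SE 0.38, adjusted p = 0.0213) and 2.22 (SE 0.33, adjusted p = 0.0385). LIPE and MAOB were chosen after their values were seen. At 16 wkpp, 3 of 4 macrophage markers tested and 2 of 3 mast cell markers were DEGs higher in SNEB, 1 of 2 skeletal muscle markers was a DEG lower in SNEB, and 0 of 5 smooth muscle markers were DEGs. The adipocyte sum, given above, and the lymphocyte sum, at 125 to 222 in SNEB and 51.8 to 116 in MNEB, were also higher in SNEB without overlap. The part of these cells in the calls of the pathway genes was not tested.

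**Figure D5:**
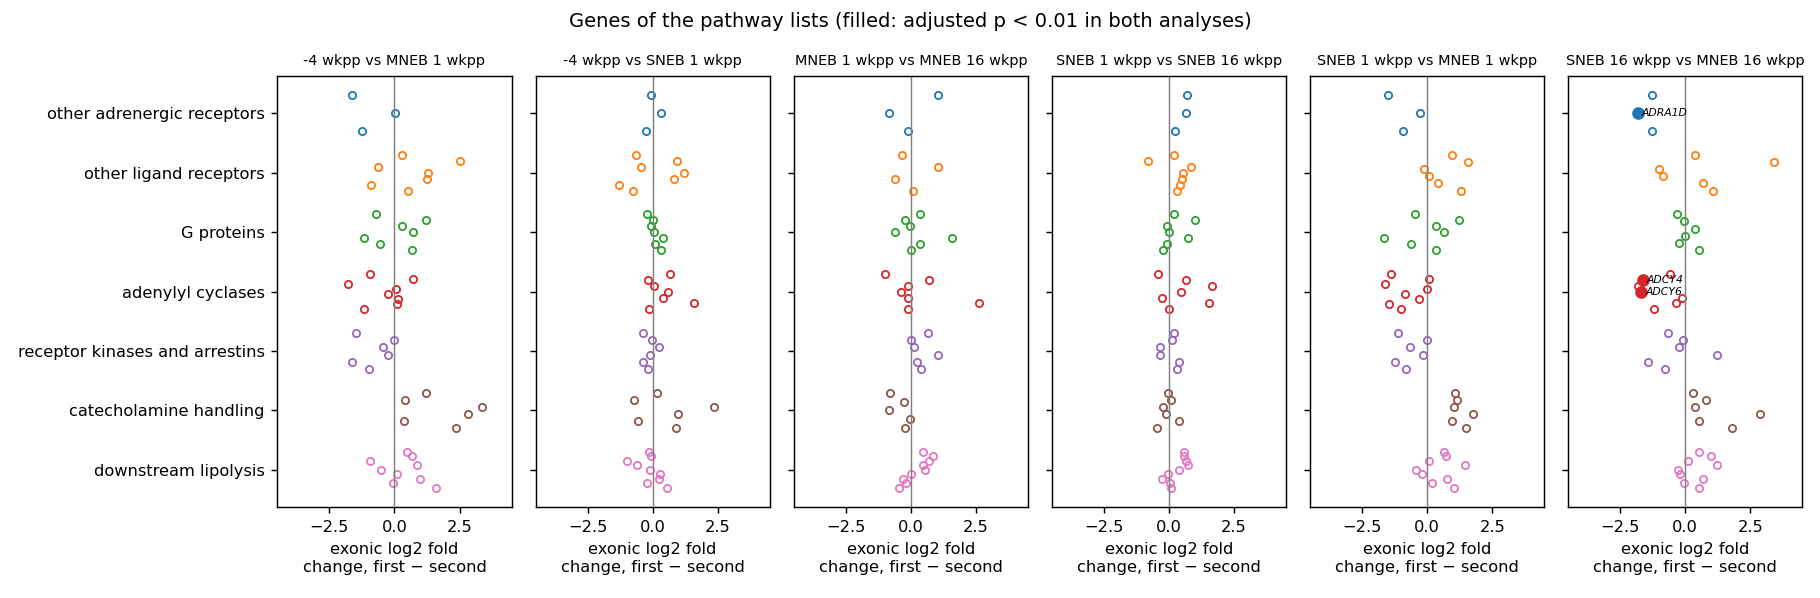
Exonic log2 fold change of each gene of 7 pathway lists in 6 comparisons, first named group over second. Points are genes and filled points passed an adjusted p of 0.01 in both analyses. The filled points are ADRA1D, ADCY4 and ADCY6, at -1.82, -1.62 and -1.69 in SNEB against MNEB at 16 wkpp.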

How the data were processed

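RNA of subcutaneous adipose tissue was sequenced by the authors as stranded total RNA after removal of ribosomal RNA. Per the study's methods and the submitters' processing notes, reads were prepared with bcl2fastq 2.15.0, trimmed with Cutadapt 1.3, aligned with TopHat2 to bosTau8, counted with htseq-count and compared with DESeq2. In the 6 deposited tables, 1 per comparison, the value used is the authors' mean, over 6 libraries, of read counts divided by their size factors, given for exons and for the whole gene. The authors' fold changes, standard errors, test scores and p-values were not used, and 0 columns belonged to other samples.

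Each mean is a sum of whole reads divided by size factors, and these factors were inferred from the smallest means. The reads of each library were then recovered from the digits of the 6 means. Genes with a mean above 50000 in any comparison were left out by rule, since false solutions can occur there. This left out 16 genes on exons and 30 on the whole gene, so FABP4 has no value by library. All other genes were recovered. The exonic and whole gene reads were solved separately, and 83 of 83 spike-ins recovered in both had equal reads. ADIPOQ has no entry. Which of the 3 libraries of a group is which sample is not known. As the tables hold means and not counts, limma 3.58.1 (voom, R 4.3.3) was used on the recovered reads, with 3 against 3 libraries, a mean normalized count of at least 5 and an adjusted p below 0.01 in both analyses. The method was checked on data with known changes. Alternatives were exonic or whole gene reads alone, an adjusted p below 0.05, a joint fit over 15 libraries, scaling by total reads, no filter, limma trend fits in place of voom with pseudocounts of 1 and 0.1, and leaving out 1 library, and, after the data were seen, library quality weights.

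The receptor genes and the lists were chosen with earlier results of these data known, and 1 gene of the list of other adrenergic receptors is not reported here. All receptor genes with an entry are named, as are the genes of the pathway lists called in at least 1 comparison, and any other gene is marked as chosen after its values were seen. Genes of like pattern were to be named for receptor genes that were called, and none was. Reference sequences of the build used by the authors were not used here. Tables were handled in Python 3.11.15 with pandas 2.3.3 and numpy 2.4.6, starting group means for the recovery came from non-negative least squares in scipy 1.17.1, and plots were drawn with matplotlib 3.10.9.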

Additional observations from a re-analysis of the deposited data

How the results depend on the processing

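No paired analysis was possible because the labels do not tie libraries to cows. The number of receptor genes called was 0 throughout in the main fits, and values for all genes under the same setting stand in brackets. For -4 wkpp against MNEB 1 wkpp the number became 1 on exonic reads alone (15.2%). It was 1 at an adjusted p below 0.05 (8.87%) and 1 with library quality weights (14.3%). For -4 wkpp against SNEB 1 wkpp it became 2 with quality weights (2.67%) and 0 to 1 with 1 library left out (0 to 86 genes). For SNEB against MNEB it became 1 with quality weights at 1 wkpp (7.35%). At 16 wkpp it became 1 at an adjusted p below 0.05 (12.5%) and 1 in a joint fit over 15 libraries (4.30%). Of the pathway genes, the count for -4 wkpp against MNEB 1 wkpp was 11 on exonic reads (15.2%) and 3 at an adjusted p below 0.05 (8.87%). It was 3 in the joint fit (1053 of 10951 genes) and 8 with quality weights (14.3%). In limma trend fits without voom weights it was 1 at each pseudocount (226 and 231 of 11138 genes). With 1 library left out it was 0 to 1 (0 to 183 genes). Against SNEB 1 wkpp it was 1 at an adjusted p below 0.05 (57 of 11013 genes) and 2 with quality weights (2.67%). With 1 library left out it was 0 (0 to 86 genes). Between SNEB and MNEB at 1 wkpp it was 3 in the joint fit (300 of 10951 genes) and 4 with quality weights (7.35%). With 1 library left out there, it was 0 to 4 (0 to 729 genes). At 16 wkpp it was 8 on exonic reads (9.99%) and 9 at an adjusted p below 0.05 (12.5%). It was 1 to 3 with 1 library left out at 16 wkpp (34 to 106 genes). The cause of these moves was not tested.

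For all genes, calls for -4 wkpp against MNEB 1 wkpp went from 145 (87 higher, 58 lower) to 1053 (375 and 678) in the joint fit, 1589 with quality weights and 0 to 183 with 1 library left out. Against SNEB 1 wkpp they went from 4 to 294 with quality weights and 0 to 86 with 1 library left out, for SNEB against MNEB at 1 wkpp from 0 to 300 in the joint fit, 813 with quality weights and 0 to 729 with 1 library left out, and at 16 wkpp from 369 to between 34 and 106 with 1 library left out.

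Of the values of single receptor genes, 628 kept direction and side of the threshold, 9 passed it and 34 turned in direction, none of which had passed. ADORA1 turned for SNEB over time on whole gene reads (-0.18), in the limma trend fits with pseudocounts of 1 and 0.1 (-0.0045 and -0.0055) and with quality weights (-0.21), and between SNEB and MNEB at 1 wkpp likewise (-0.37, -0.053, -0.056 and -0.48). With 1 library left out, the log2 fold change ranged over 0 for HCAR1 in -4 wkpp against MNEB 1 wkpp (-1.35 to 0.33). In MNEB over time it did so for ADRA2A (-0.32 to 0.12), ADRA1A (-0.53 to 0.25), HCAR1 (-1.60 to 0.086), ADORA1 (-0.80 to 0.54) and PTGER3 (-0.23 to 1.15), and in SNEB over time for ADRB1 (-0.72 to 0.017), ADRA2A (-0.34 to 0.55), FFAR2 (-0.32 to 1.40) and ADORA1 (-0.54 to 0.38). Between SNEB and MNEB it did so for ADORA1 at 1 wkpp (-0.52 to 0.40) and for ADRB1 (-0.39 to 0.77), ADORA1 (-0.90 to 0.52) and PTGER3 (-0.15 to 1.23) at 16 wkpp, and for the difference of the changes over time for ADRA2A (-0.16 to 0.72) and ADORA1 (-0.48 to 0.93).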
